A study of Mus musculus with 24 samples.

Results

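The genes described here were 31 genes of glycolysis, lactate handling and the hypoxia response, taken by name from the deposited count table of mouse dendritic cells. All 31 were found among the 38887 genes of the table, and all 31 had enough counts to be among the 14188 genes tested. By role they were 2 glucose carriers, 10 upper glycolysis genes from hexokinase to triose phosphate isomerase, 2 fructose 2,6-bisphosphate enzymes, 6 lower glycolysis genes, 4 genes of lactate and pyruvate handling, 3 genes of HIF control and 4 known HIF targets. RNA of dendritic cells grown from mouse bone marrow had been sequenced in 24 libraries. The cells were labelled wild type (WT) or knockout (KO) for IRE1, the endoplasmic reticulum stress sensor encoded by Ern1, and were untreated, stimulated with zymosan or stimulated with LPS, with 4 replicates in each of the 6 groups. Zymosan is a yeast cell wall preparation sensed by Dectin-1 and Toll-like receptor 2, and LPS is a Gram-negative outer membrane lipid sensed by Toll-like receptor 4. Dose, duration, mouse age, the Ern1 allele and any Cre driver were not given in the sources used here.

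Glycolysis splits glucose to pyruvate, and phosphofructokinase is its main control point. Fructose 2,6-bisphosphate, made by the PFKFB enzymes, activates phosphofructokinase. The transcription factor HIF-1 consists of HIF-1α, encoded by Hif1a, and ARNT. Prolyl hydroxylases encoded by the Egln genes mark HIF-1α for degradation when oxygen is present, and HIF-1 raises transcription of many glycolytic genes in hypoxia. Dendritic cells and macrophages stimulated through pattern recognition receptors are known to increase glucose uptake and lactate release, and Hif1a is a known target of NF-κB. mRNA levels are one layer of this control, and neither enzyme activity, HIF-1α protein nor oxygen was measured in these libraries.

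The promoter sequences of 7 genes are shown because their mRNAs carried the main patterns described below. They are the 250 bases before a RefSeq transcription start (GRCm38.p6), on the strand of the gene. Pfkfb3 and Ldha each have 2 starts in the table, and the one with more matches is printed (3 against 1 upstream match for Pfkfb3, 5 against 1 for Ldha). Capitals mark the core letters of the HIF binding element, ACGTG or GCGTG, in either orientation, so that CACGT and CACGC are the same letters read on the other strand. The first sequence belongs to Hif1a, the third to Slc2a6 (a glucose carrier of the lysosomal membrane), the fifth to Ankrd37 (a known HIF target), and the last to Gpi1 (glucose-6-phosphate isomerase), which has no such letters.
Hif1a, chr12:73907617-73907866, plus strand: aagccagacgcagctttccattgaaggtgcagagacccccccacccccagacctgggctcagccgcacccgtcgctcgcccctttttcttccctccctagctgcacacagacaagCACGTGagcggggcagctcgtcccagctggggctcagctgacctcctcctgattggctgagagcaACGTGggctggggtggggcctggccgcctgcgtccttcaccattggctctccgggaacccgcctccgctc
Pfkfb3, chr2:11502091-11502340, minus strand: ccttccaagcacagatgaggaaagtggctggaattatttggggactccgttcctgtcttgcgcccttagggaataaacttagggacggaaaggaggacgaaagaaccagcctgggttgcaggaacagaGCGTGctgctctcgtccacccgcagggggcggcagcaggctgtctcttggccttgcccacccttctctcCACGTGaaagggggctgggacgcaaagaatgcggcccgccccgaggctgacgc
Slc2a6, chr2:27027999-27028248, minus strand: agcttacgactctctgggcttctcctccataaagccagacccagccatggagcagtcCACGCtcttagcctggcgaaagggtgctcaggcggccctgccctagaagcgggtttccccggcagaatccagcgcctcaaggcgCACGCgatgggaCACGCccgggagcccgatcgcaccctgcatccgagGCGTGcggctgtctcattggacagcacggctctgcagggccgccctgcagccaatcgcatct
Hk3, chr13:55021386-55021635, minus strand: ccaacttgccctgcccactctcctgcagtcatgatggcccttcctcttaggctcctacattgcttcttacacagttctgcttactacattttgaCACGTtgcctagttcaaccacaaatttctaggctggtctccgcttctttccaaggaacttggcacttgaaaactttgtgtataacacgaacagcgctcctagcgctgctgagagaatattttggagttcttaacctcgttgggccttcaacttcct
Ankrd37, chr8:45999851-46000100, minus strand: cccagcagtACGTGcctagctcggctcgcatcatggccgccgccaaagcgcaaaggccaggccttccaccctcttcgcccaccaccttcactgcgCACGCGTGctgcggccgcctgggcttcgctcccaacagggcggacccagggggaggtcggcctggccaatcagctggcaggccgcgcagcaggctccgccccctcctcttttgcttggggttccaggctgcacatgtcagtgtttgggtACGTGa
Ldha, chr7:46845554-46845803, plus strand: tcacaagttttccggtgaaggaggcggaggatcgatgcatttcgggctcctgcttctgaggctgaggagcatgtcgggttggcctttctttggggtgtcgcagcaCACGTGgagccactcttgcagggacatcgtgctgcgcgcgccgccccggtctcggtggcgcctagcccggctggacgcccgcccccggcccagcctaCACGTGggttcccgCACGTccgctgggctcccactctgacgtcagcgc
Gpi1, chr7:34230337-34230586, minus strand: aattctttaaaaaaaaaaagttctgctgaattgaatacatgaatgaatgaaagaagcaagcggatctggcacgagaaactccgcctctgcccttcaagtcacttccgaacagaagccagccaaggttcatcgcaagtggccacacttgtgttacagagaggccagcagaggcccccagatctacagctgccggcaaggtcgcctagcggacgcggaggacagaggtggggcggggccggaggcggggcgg

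The RefSeq table held promoter windows of 300 bases (250 before and 50 after a start) for all 31 genes, 45 windows in total. ACGTG or GCGTG, on either strand, occurred in at least 1 window of 28 of the 31 genes (90.3%), against 46.7% of the 27025 genes with a window. Counted over windows, the letters were in 36 of 45 (80.0%), against 43.8% of 32851. ACGTG alone was found in 21 of the 31 genes (67.7%) against 21.8% of all genes. The palindrome CACGTG, in which ACGTG and its reverse complement overlap, was in 6 genes (19.4%) against 8.09%. The members' windows were also richer in CpG, with a median of 20 CpG dinucleotides per window against 7 in all windows, so their base composition differed from that of the background. Eno2, Gpi1 and Tpi1 had no match. A match is a description of the letters and does not show that HIF-1 binds there.

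Total counts per library ranged from 32223256 to 46927434. Libraries with replicate numbers 1 and 2 of a group, and likewise 3 and 4, were mostly closer to each other than to the rest. The chi-square statistic per gene had a median of 3.99 in these 12 pairs and of 15.02 in the 24 other within-group pairs, with overlapping ranges (1.87 to 7.62 against 6.26 to 22.9). The exception was WT cells with LPS, where replicate 3 was nearer to replicate 2 (6.26) than to replicate 4 (7.62). The labels do not say whether replicates came from separate mice or cultures, so p-values measure the spread between these libraries, which may be partly technical. Each call of a member gene below was therefore also examined after adding up replicate 1 with 2, and 3 with 4, and with each pair alone. Adding up leaves 2 libraries per group. Calls of marker genes and of genes from other lists were not examined in this way. The KO label did not go with less Ern1 mRNA: its level ranged from 48.2 to 54.6 counts per 1000000 counts (CPM) in untreated labelled KO libraries against 40.2 to 43.3 in WT, and was also higher in every labelled KO library with zymosan (35.6 to 39.2 against 29.5 to 30.7) and with LPS (36.6 to 41.8 against 27.1 to 29.9). Which part of Ern1 was altered is not given in the sources used here, so gene-level counts do not check the genotype labels.

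All 10 dendritic cell markers, among them Itgax, Flt3, H2-Ab1 and Zbtb46, were detected in each group. Their summed level was 5045 to 5264 CPM in untreated WT cells, 6098 to 6362 CPM with zymosan and 6368 to 6918 CPM with LPS. In labelled KO cells it was 6131 to 6402, 7260 to 7812 and 6979 to 7389 CPM, so the sum was higher in labelled KO than in WT libraries of each condition and higher with either stimulus, without overlap. Markers of other cells were present as well. The 6 eosinophil markers, such as Epx, Prg2 and Siglecf, summed to 698 to 1146 CPM over the 12 WT libraries and to 20.3 to 31.01 CPM over the 12 labelled KO libraries. The 8 macrophage markers summed to 1892 to 2016 CPM in WT cells with LPS and to 1406 to 1437 CPM in labelled KO cells with LPS, without overlap. Neutrophil markers (8 genes) ranged from 1082 to 2013 CPM over all 24 libraries and did not overlap between genotypes with LPS (1267 to 1358 CPM in WT, 1589 to 1779 CPM in labelled KO cells). Mast cell and basophil markers (6 genes) ranged from 25.1 to 44.6 CPM. In such bulk libraries fewer cells of a type and less RNA per cell cannot be told apart.

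Levels between genes were compared as CPM per kilobase of merged exons, averaged over the 6 groups. The order of genes depends on this choice of length. Merged exons of Eno1 span 5379 bases against 2027 in its longest transcript, and those of Pgk1 2244 against 1825. The ranking below holds for merged exons only. Pgk1 (phosphoglycerate kinase) stood highest of the 31 genes at 1237 CPM per kilobase, followed by Gapdh at 879 and Ldha at 849. Pgam1, Aldoa, Eno1, Pkm and Tpi1, which act between aldolase and pyruvate kinase, lay between 590 and 772. The first steps were lower: Gpi1 stood at 370, the most abundant glucose carrier Slc2a1 at 275, and Hk3, the most abundant hexokinase, at 114. Hif1a stood at 166 and its hydroxylase gene Egln3 at 347. Pfkm, Eno2 and Adm were the least abundant at 1.94, 0.850 and 4.24 CPM per kilobase. The 17 enzymes from hexokinase to lactate dehydrogenase together reached 25293 CPM in untreated WT cells, 27865 CPM with zymosan and 24355 CPM with LPS. The corresponding values in labelled KO cells were 26499, 28486 and 26365 CPM. These CPM use TMM-scaled library sizes, so they are not shares of the raw counts. On this scale the sum stayed within a narrow band while single members changed several-fold.

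**Figure D1:**
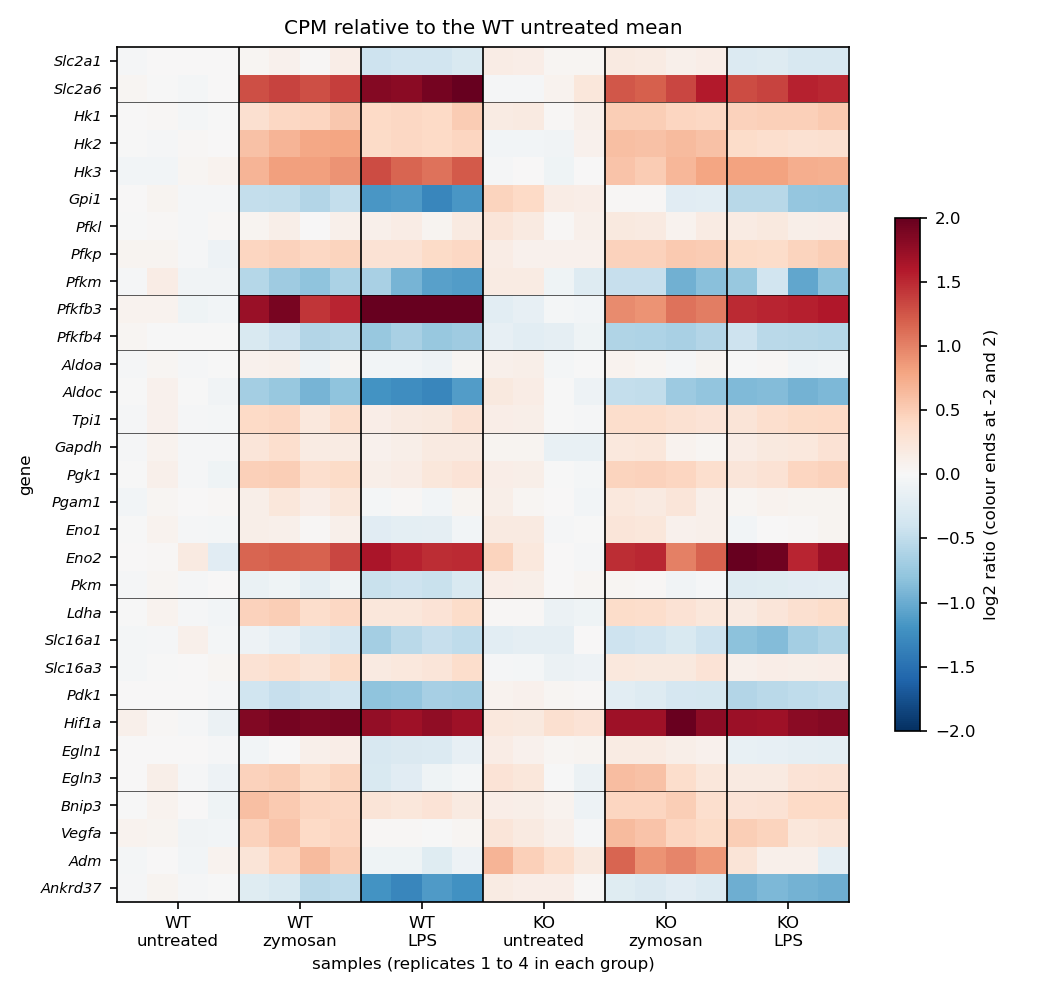
Log2 ratio of each of the 31 genes (rows, thin lines between roles) in each of the 24 libraries (columns) to its mean CPM in untreated WT cells, with the colour scale ending at −2 and 2. Hif1a, Pfkfb3, Slc2a6, Hk3 and Eno2 stand out as higher with both stimuli in both genotypes, and Ankrd37 and Aldoc as lower, most of all with LPS. Gpi1 is lower with LPS in both genotypes and with zymosan in WT cells. In labelled KO cells with zymosan Gpi1 lies on both sides of the untreated WT mean.

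The first question was how the stimuli altered these genes in WT cells. With zymosan, 18 of the 31 genes were higher and 8 lower than in untreated WT cells (edgeR quasi-likelihood test, Benjamini-Hochberg adjusted p under 0.05 over all genes tested). Of all 14188 genes, 70.2% were called in this comparison (34.3% higher and 35.9% lower), so the members' total of 26 is near the background, and their calls lean towards higher levels. The median log2 difference was 0.32 over the members and −0.01 over all genes. With LPS, 15 were higher and 11 lower, where 75.6% of all genes were called (35.9% higher, 39.7% lower). The members' median was 0.02, against −0.04 over all genes. With zymosan 4 members rose by over 1 on the log2 scale and none fell by as much, and with LPS 5 rose and 3 fell by more than 1. Such counts were not made over all genes, so they have no background. The median absolute log2 difference was 0.43 over the members and 0.41 over all genes with zymosan. It was 0.37 and 0.51 with LPS. Both comparisons use the same 4 untreated WT libraries, so their values are given side by side. The part of the marker levels above in these differences was not tested.

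Hif1a (chromosome 12, 73901375 to 73947530, plus strand, GRCm38) had the largest rise with zymosan. Its level in untreated WT libraries was 393, 373, 358 and 339 CPM. With zymosan it was 1326, 1381, 1343 and 1357 CPM, and with LPS 1242, 1185, 1255 and 1179 CPM. Every stimulated library stood far above every untreated one. The log2 difference was 1.89 ± 0.06 (SE) with zymosan, which is 3.70-fold (edgeR adjusted p = 1.89e-19), and 1.73 ± 0.06 with LPS, which is 3.32-fold (adjusted p = 3.55e-19). The 2 hydroxylase genes moved less. Egln3, itself a known HIF target, rose with zymosan by 0.45 ± 0.08 on the log2 scale, from 749 to 878 CPM in untreated libraries to 1054 to 1134 CPM. With LPS Egln3 ranged from 653 to 780 CPM, which overlaps the untreated libraries, and the difference of −0.16 ± 0.08 did not pass (adjusted p = 0.0791). Egln1, the main oxygen-sensing hydroxylase in most tissues, did not pass with zymosan (0.05) and fell by 0.26 ± 0.04 with LPS (edgeR adjusted p = 2.53e-06).

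Known targets of HIF-1 did not move as 1 block. Bnip3, a mitophagy receptor, rose by 0.49 with zymosan and by 0.24 with LPS on the log2 scale. Vegfa, the endothelial growth factor, was at 404, 403, 367 and 372 CPM in untreated WT libraries. It reached 533, 571, 508 and 524 CPM with zymosan and 392, 392, 383 and 396 CPM with LPS. The zymosan libraries lay above all others, while the LPS libraries fell inside the untreated range. The differences were 0.46 ± 0.06 and 0.02 ± 0.06, the second not passing (edgeR adjusted p = 0.837). Adm, the vasodilator peptide adrenomedullin, was between 4.53 and 8.33 CPM in all WT libraries: it rose with zymosan by 0.46 ± 0.10 and did not pass with LPS (−0.13). Ankrd37, an ankyrin-repeat gene first known from hypoxia, went the other way. Its level was 78.0, 83.1, 78.1 and 79.5 CPM untreated, 67.4, 64.8, 54.8 and 56.3 CPM with zymosan, and 34.7, 32.2, 36.2 and 34.4 CPM with LPS. No group overlapped another, and the log2 difference from untreated was −0.39 ± 0.05 with zymosan (edgeR adjusted p = 3.23e-07) and −1.21 ± 0.05 with LPS (adjusted p = 1.52e-16). Exons of Ankrd37 overlap Ufsp2 on the opposite strand over 57 bases, and Ufsp2 had 114% of its counts. Whether counting used strand is not given in the sources used here.

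Among the glycolytic genes the largest rise with either stimulus was that of Pfkfb3 (chromosome 2, 11471433 to 11554077, minus strand), whose product makes fructose 2,6-bisphosphate with high kinase activity. It was at 94.3, 94.7, 84.4 and 86.1 CPM in untreated WT libraries. With zymosan it was at 296, 336, 241 and 259 CPM, and with LPS at 379, 371, 365 and 387 CPM. The 3 groups were fully separated. The rise was 3.15-fold with zymosan (log2 1.66 ± 0.07, edgeR adjusted p = 2.94e-16) and 4.18-fold with LPS (log2 2.06 ± 0.07, adjusted p = 2.04e-18). The relative Pfkfb4 moved in the opposite direction, from 43.9 to 45.4 CPM untreated to 29.6 to 35.9 CPM with zymosan and 26.2 to 28.2 CPM with LPS. Its log2 differences were −0.46 ± 0.05 and −0.72 ± 0.05.

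**Figure D2:**
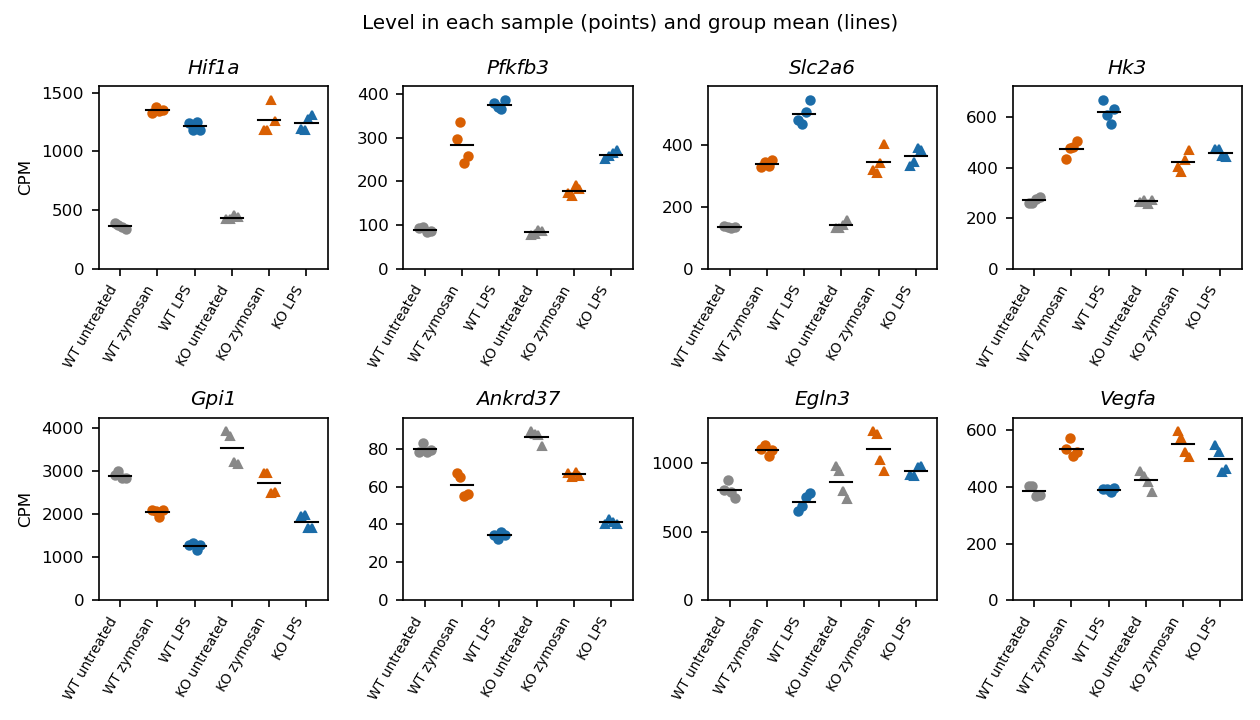
CPM in each of the 24 libraries for Hif1a, Pfkfb3, Slc2a6, Hk3, Gpi1, Ankrd37, Egln3 and Vegfa, 1 panel per gene, with WT circles and labelled KO triangles and the group mean as a line. Pfkfb3 rises from 84.4 to 94.7 CPM in untreated WT libraries to 365 to 387 CPM with LPS, while Gpi1 and Ankrd37 step down from untreated to zymosan to LPS in both genotypes.

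The 2 glucose carriers moved apart. Slc2a6, whose product sits in lysosomal membranes, was at 138, 134, 131 and 135 CPM in untreated WT libraries. It rose to 328, 345, 330 and 350 CPM with zymosan and to 479, 468, 505 and 546 CPM with LPS. All 3 groups were separate, with a rise of 2.51-fold (log2 1.33 ± 0.07, edgeR adjusted p = 2.34e-14) and of 3.71-fold (log2 1.89 ± 0.07, adjusted p = 1.22e-17). Slc2a1, the plasma membrane carrier GLUT1 and a known HIF target, was at 980 to 1007 CPM untreated and 1009 to 1094 CPM with zymosan, a difference of 0.07 ± 0.04 that did not pass (edgeR adjusted p = 0.0947, but 0.0397 with a replicate block). With LPS it fell by 0.37 ± 0.04 to between 747 and 804 CPM (adjusted p = 1.84e-09). As a result Slc2a6 made up 12.9% of the 2 carriers' summed CPM per kilobase in untreated WT cells, 26.1% with zymosan and 41.5% with LPS.

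All 3 hexokinases, which trap glucose by phosphorylation, rose with both stimuli. Hk3, the myeloid hexokinase, was at 261, 262, 278 and 284 CPM untreated, 433, 477, 480 and 504 CPM with zymosan and 669, 606, 573 and 633 CPM with LPS. Its groups did not overlap, and it rose by 0.80 ± 0.06 and by 1.19 ± 0.06 on the log2 scale (edgeR adjusted p = 5.08e-12 and 1.18e-15). Hk2, the inducible mitochondria-bound form, was at 313 to 321 CPM untreated, 476 to 549 CPM with zymosan and 415 to 430 CPM with LPS, a rise of 0.71 ± 0.04 and 0.41 ± 0.04. Hk1, the widely expressed form, rose by 0.43 with either stimulus. Per kilobase, Hk3 was the most abundant hexokinase in each group of WT cells and took 46.2%, 49.6% and 59.5% of the 3 hexokinases with no stimulus, zymosan and LPS. The share of Hk2 was 33.4%, 33.5% and 25.0%.

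Gpi1 (chromosome 7, 34201330 to 34230336, minus strand), which converts glucose 6-phosphate to fructose 6-phosphate, had the largest fall in CPM. It was at 2909, 3002, 2854 and 2845 CPM in untreated WT libraries. With zymosan it was at 2097, 2073, 1940 and 2093 CPM, and with LPS at 1288, 1324, 1178 and 1290 CPM. Each step was complete, with log2 differences from untreated of −0.50 ± 0.07 (edgeR adjusted p = 1.3e-06) and −1.19 ± 0.07 (adjusted p = 1.56e-13). Of the phosphofructokinases, the catalytic control enzymes of the pathway, Pfkp rose by 0.44 and 0.35, Pfkl did not pass with zymosan (0.07; it passed with a replicate block, adjusted p = 0.0456) and rose by 0.12 with LPS (edgeR adjusted p = 0.014, but 0.122 once the pairs were summed), and Pfkm fell by 0.68 ± 0.13 and by 0.94 ± 0.13. Pfkm was at 8.43 to 9.86 CPM untreated and 4.08 to 5.63 CPM with LPS. It made up 2.54% of phosphofructokinase mRNA per kilobase in untreated WT cells. Exons of Pfkm overlap the more abundant Senp1 on the other strand over 18 bases, and Senp1 had 422% of its counts. Aldoc, the minor aldolase, fell by 0.79 ± 0.07 and by 1.21 ± 0.07, whereas Aldoa, which held 94.6% of aldolase mRNA per kilobase without a stimulus, did not pass with either (0.04 and −0.05). Tpi1, the isomerase that joins both triose branches, rose by 0.34 and 0.20.

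**Figure D3:**
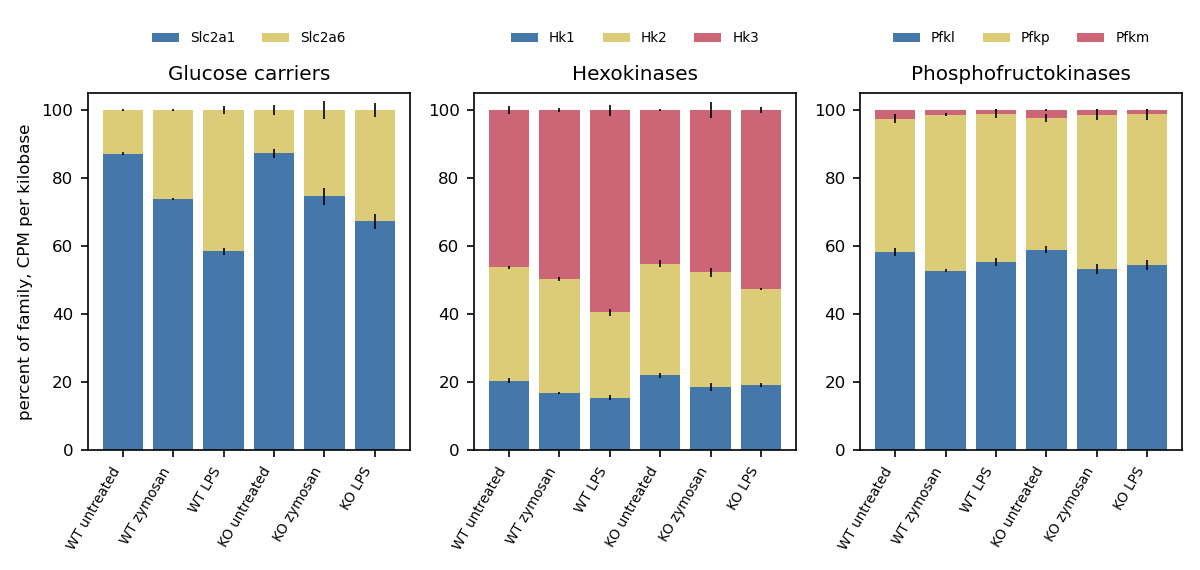
Mean percent of the family's CPM per kilobase held by each member (stacked bars, SD over 4 libraries) for glucose carriers, hexokinases and phosphofructokinases in the 6 groups. Slc2a6 grows from 12.9% of the 2 carriers in untreated WT cells to 41.5% with LPS, and from 12.7% to 32.7% in labelled KO cells.

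Lower glycolysis moved by small amounts. With zymosan Pgk1, Gapdh and Pgam1 rose by 0.42, 0.22 and 0.18 on the log2 scale, Eno1 did not pass (0.09), and Pkm, the pyruvate kinase gene, fell by 0.12 ± 0.04. With LPS Pgk1 and Gapdh rose by 0.19 and 0.14, Pgam1 did not pass, and Eno1 and Pkm fell by 0.16 and by 0.40. The fall of Pkm with LPS was the clearest of these, from 3536 to 3671 CPM untreated to 2627 to 2900 CPM (edgeR adjusted p = 3.09e-09). Eno2, the neuronal enolase, rose most in ratio, from 1.53 to 2.03 CPM untreated to 4.03 to 4.52 CPM with zymosan and 5.02 to 5.57 CPM with LPS (1.22 ± 0.13 and 1.54 ± 0.13). Eno1 still held 99.9%, 99.9% and 99.8% of enolase mRNA per kilobase in the 3 WT conditions. Gapdh has 37 other annotated genes with at least 95% identity over 300 bases or more, and their summed counts were 90.6% of those of Gapdh itself, so its level depends on how reads were divided among them. With the counts of replicate pairs summed, the small calls of Gapdh (adjusted p = 0.0518 with zymosan and 0.196 with LPS), of Pkm with zymosan (0.176), and of Pgk1 (0.0918) and Eno1 (0.125) with LPS ended.

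Of the genes that decide the fate of pyruvate, Ldha, the subunit that makes lactate, rose by 0.43 ± 0.05 with zymosan and by 0.27 with LPS. Its level went from 2338 to 2540 CPM untreated to 3086 to 3393 CPM with zymosan and 2814 to 3123 CPM with LPS. Slc16a3, the lactate exporter MCT4, rose by 0.32 and 0.25, and Slc16a1, the carrier MCT1, fell by 0.22 and by 0.54. With replicate pairs summed the fall of Slc16a1 with zymosan did not pass (edgeR adjusted p = 0.0533). Slc16a3 held 93.6% of the mRNA of the 2 lactate carriers per kilobase in untreated WT cells and 96.2% with LPS. Pdk1, a kinase that inhibits pyruvate dehydrogenase and a known HIF target, was lower in every stimulated library. It was at 209, 208, 210 and 204 CPM untreated, 158, 151, 154 and 159 CPM with zymosan and 120, 122, 131 and 130 CPM with LPS. The groups did not overlap, and the log2 differences were −0.42 ± 0.04 and −0.73 ± 0.04 (edgeR adjusted p = 8e-15 with LPS).

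**Figure D4:**
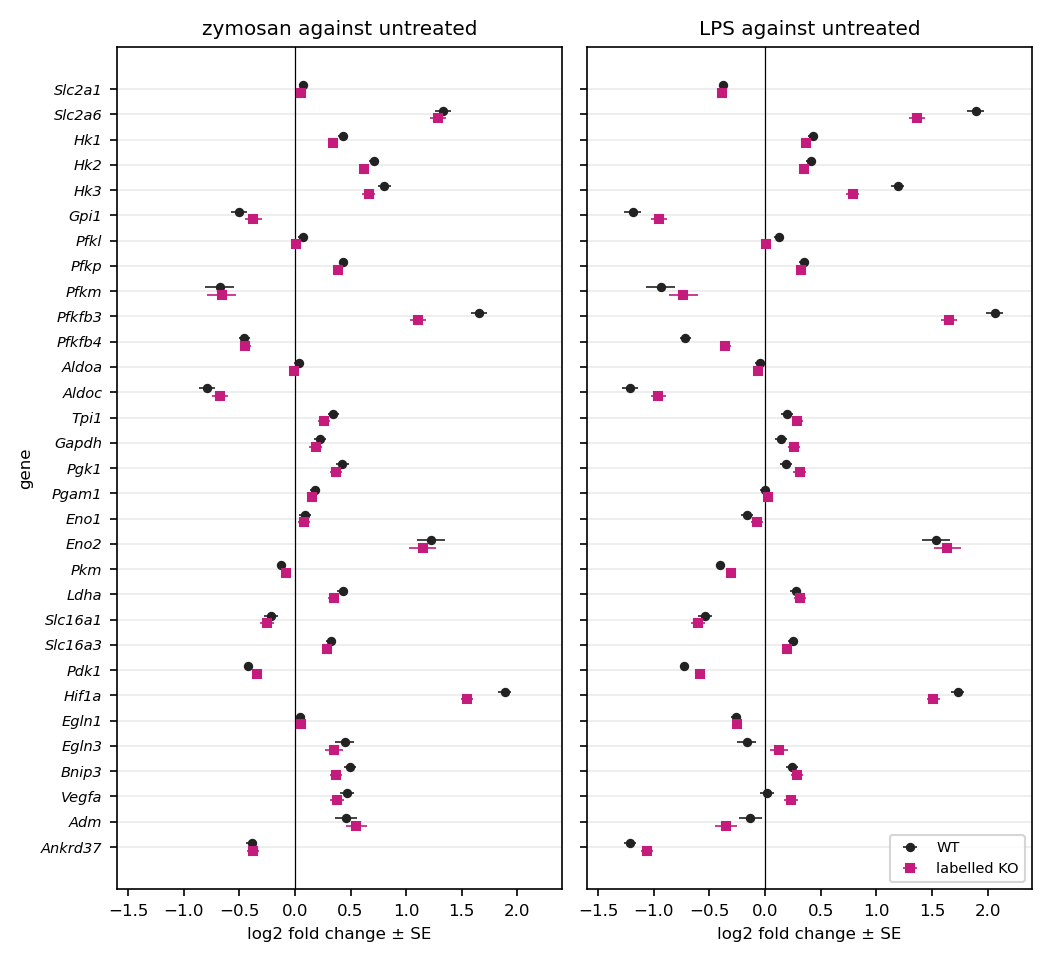
Log2 difference (± SE) of each of the 31 genes from untreated cells with zymosan and with LPS, in WT cells (circles) and in labelled KO cells (squares). Hif1a lies at 1.89 and 1.73 in WT cells, Pfkfb3 at 1.66 and 2.06, and Ankrd37 at −0.39 and −1.21.

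The next comparison set the stimuli against each other in WT cells. Levels were higher with zymosan than with LPS for 20 of the 31 genes and lower for 4, while 46.4% of all genes were called, 24.5% higher and 21.9% lower. The members' median log2 difference was 0.25 against 0.02 over all genes. Each of the 3 genes of HIF control and each of the 4 HIF targets was higher with zymosan: Ankrd37 by 0.82 ± 0.05, Egln3 by 0.61 ± 0.08, Adm by 0.60 ± 0.10, Vegfa by 0.45 ± 0.06, Egln1 by 0.31, Bnip3 by 0.25 and Hif1a by 0.15. Gpi1 (0.69 ± 0.07, edgeR adjusted p = 3.33e-08), Slc2a1 (0.45 ± 0.04, adjusted p = 8.07e-10) and Pdk1 (0.31) were also higher with zymosan. The 4 lower genes were Slc2a6 (−0.56 ± 0.07), Pfkfb3 (−0.41 ± 0.07), Hk3 (−0.39 ± 0.06) and Eno2 (−0.31 ± 0.12), which with Hif1a were the 5 that had risen by over 1 with LPS. With replicate pairs summed, 6 of the smaller calls did not pass, among them Hif1a (adjusted p = 0.182), Eno2 (0.185) and Eno1 (0.0501).

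Among the members, much the same genes were called in cells labelled KO. How many of all genes were called alike in both genotypes was not counted, so the overlaps below have no background. With zymosan, 18 members were higher and 7 lower than in untreated labelled KO cells, where 66.8% of all genes were called (31.6% higher and 35.2% lower). The same 18 and 7 were called in that direction in WT cells, and Pkm was called in WT cells alone, with a labelled KO value of −0.08 (edgeR adjusted p = 0.0911, and 0.0491 with a replicate block). With LPS, 15 members were higher and 11 lower, and 71.8% of all genes were called (34.4% higher and 37.4% lower). Of these, 14 higher and 10 lower ones were shared with WT cells. Pfkl and Eno1 were called in WT cells alone, and Vegfa (0.23, adjusted p = 0.00213, and 0.0549 with replicate pairs summed) and Adm (−0.35, adjusted p = 0.00257) in labelled KO cells alone. A call in 1 genotype does not show a difference between genotypes, which the tests of the difference below address. Between zymosan and LPS, 13 members were higher and 2 lower in labelled KO cells, with 42.7% of all genes called (22.7% higher and 20% lower). The 13 and 2 were also called in WT cells, where 9 further members passed. Slc2a6 and Hk3, for which WT cells had the lower level under zymosan, differed by −0.08 and −0.12 in labelled KO cells and did not pass.

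The genotypes were then compared within each condition. In untreated cells 4 of the 31 genes were higher and 1 lower in labelled KO cells, with 9.95% of all genes called (4.31% higher and 5.64% lower). With zymosan 3 were higher and 3 lower, with 22.1% of all genes called (10.6% higher and 11.4% lower). With LPS 11 were higher and 5 lower, with 33.9% of all genes called, 15.6% higher and 18.2% lower. The members' median log2 differences were 0.06, 0.02 and 0.09, against 0.00, −0.00 and 0.01 over all genes. The 31 genes fell into 12 that were called in no condition, 13 in 1, 4 in 2 and 2 in all 3. The same split was not counted over all genes, so it has no background here. The 12 never called between genotypes were Slc2a1, Hk1, Hk2, Pfkp, Pfkm, Aldoa, Gapdh, Pgam1, Eno2, Ldha, Egln1 and Bnip3. Of the 5 eosinophil markers tested, 4 were lower in untreated labelled KO cells, 4 with zymosan and 5 with LPS, and 7 of 8 macrophage markers were lower with LPS. Of the 10 dendritic cell markers, 5 were higher in each condition, and 1, 3 and 2 were lower (untreated, zymosan, LPS). With LPS, 4 of 8 neutrophil markers were higher and 2 lower. The part of all these markers in the genotype differences was not tested.

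Gpi1 was higher in labelled KO cells in all 3 conditions. Without a stimulus it was at 3936, 3827, 3220 and 3166 CPM, with zymosan at 2960, 2950, 2490 and 2516 CPM and with LPS at 1971, 1972, 1690 and 1677 CPM. Every labelled KO library stood above every WT library of its condition, and replicates 1 and 2 stood above replicates 3 and 4 each time. The log2 difference from WT was 0.29 ± 0.07, 0.41 ± 0.07 and 0.53 ± 0.07 (edgeR adjusted p = 0.011, 0.000171 and 5.57e-06). In replicates 1 and 2 alone these differences were 0.39, 0.50 and 0.59, and in replicates 3 and 4 alone 0.17, 0.32 and 0.45. With the pairs summed the LPS difference passed (adjusted p = 0.0131), and those of untreated cells (0.34) and zymosan (0.0572) did not. The untreated call also ended without labelled KO replicate 1 (adjusted p = 0.0617) or 2 (0.0551).

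Pfkfb3 was lower in labelled KO cells once a stimulus was present. Untreated labelled KO libraries held 78.0, 79.9, 87.8 and 87.0 CPM, which overlaps WT. With zymosan they held 172, 168, 192 and 183 CPM and with LPS 252, 258, 264 and 272 CPM. Each of these 8 libraries lay below every WT library of its condition. The log2 difference from WT was −0.66 ± 0.07 with zymosan (edgeR adjusted p = 1.81e-07) and −0.52 ± 0.07 with LPS (adjusted p = 3.91e-06), and both passed with replicate pairs summed (adjusted p = 0.00356 and 0.00962). With zymosan the difference was −0.90 in replicates 1 and 2 alone and −0.41 in 3 and 4. Its relative Pfkfb4 was lower in untreated (−0.16 ± 0.05) and zymosan-treated (−0.15 ± 0.05) labelled KO cells and higher with LPS (0.20 ± 0.05), and none of these 3 passed with pairs summed (adjusted p = 0.428, 0.269 and 0.103). The zymosan difference in Pfkfb4 was −0.10 without WT replicate 1 (adjusted p = 0.155) and −0.04 in replicates 3 and 4 alone, and the untreated call ended on leaving out 1 of several libraries, for example labelled KO replicate 2 (0.11).

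Slc2a6 and Hk3 differed with LPS. Slc2a6 was at 332, 344, 390 and 384 CPM in labelled KO cells with LPS, below all 4 WT libraries, a difference of −0.46 ± 0.07 (edgeR adjusted p = 2.15e-05, and 0.014 with pairs summed). Its untreated and zymosan levels did not pass between genotypes. Hk3 was at 475, 474, 448 and 443 CPM with LPS, again below all WT libraries (−0.43 ± 0.06, adjusted p = 3.04e-06, and 0.00639 with pairs summed). With zymosan the difference in Hk3 was −0.17 ± 0.06 (adjusted p = 0.041) and did not pass with pairs summed (0.272). Slc2a6 held 32.7% of carrier mRNA per kilobase in labelled KO cells with LPS and Hk3 52.6% of hexokinase mRNA, against 41.5% and 59.5% in WT cells.

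**Figure D5:**
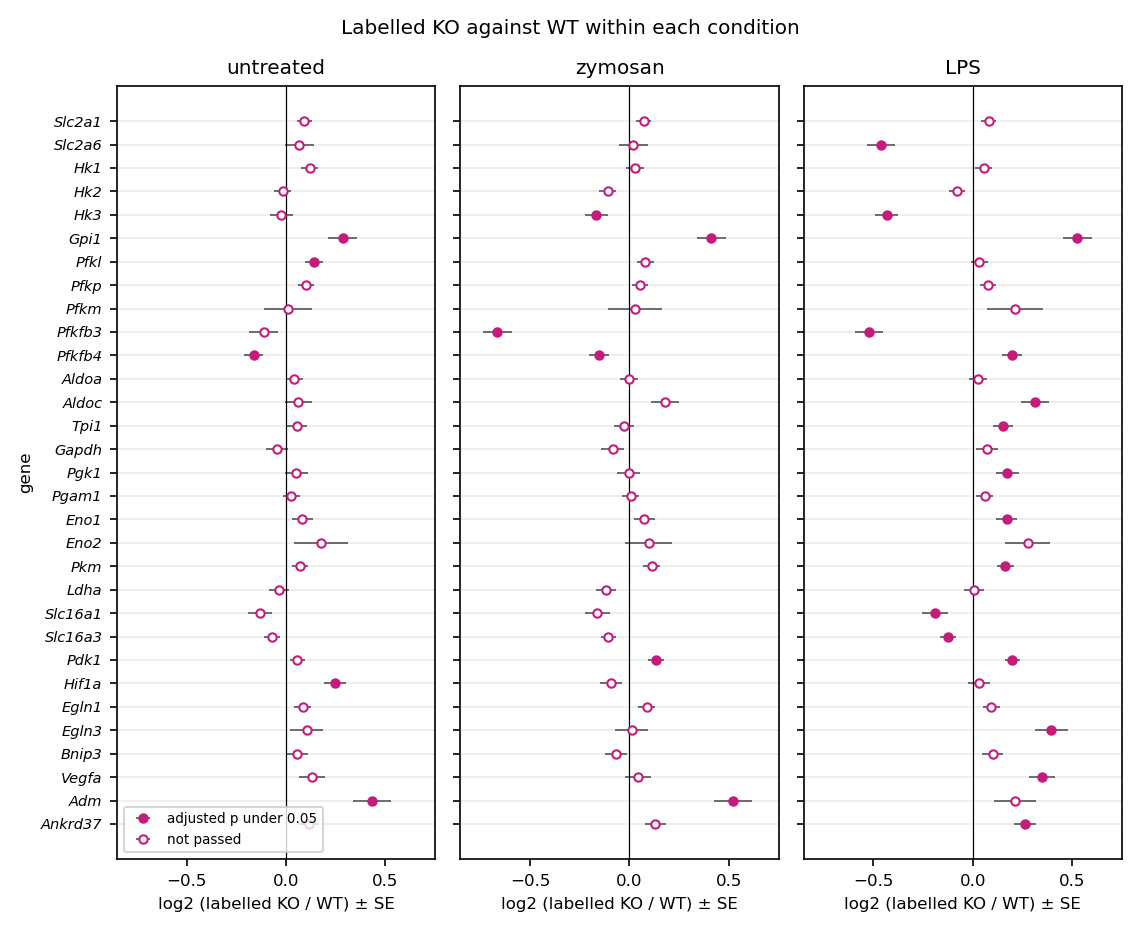
Log2 ratio of labelled KO to WT (± SE) for each of the 31 genes in untreated, zymosan and LPS cells, with filled points for an adjusted p under 0.05. Gpi1 lies to the right in the 3 panels at 0.29, 0.41 and 0.53, and Pfkfb3 lies to the left with zymosan (−0.66) and LPS (−0.52).

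Other glycolytic genes differed with LPS by less. Aldoc (0.31), Tpi1 (0.15), Pgk1 (0.17), Eno1 (0.17), Pkm (0.16) and Pdk1 (0.20) were higher in labelled KO cells, and the lactate carriers Slc16a1 (−0.19) and Slc16a3 (−0.13) were lower. None of these 8 passed with replicate pairs summed, with Aldoc nearest at an adjusted p of 0.0622. Pdk1 was also higher with zymosan (0.13 ± 0.04), and Pfkl was higher without a stimulus (0.14 ± 0.04), and neither passed with pairs summed.

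Among the hypoxia genes Hif1a was higher in untreated labelled KO cells, at 421, 420, 455 and 440 CPM, above all 4 untreated WT libraries (0.25 ± 0.06, edgeR adjusted p = 0.00354, and 0.2 with pairs summed). With zymosan or LPS it did not pass between genotypes. Adm was higher in untreated (0.43 ± 0.10) and zymosan-treated (0.52 ± 0.10) labelled KO cells. The untreated difference did not pass after summing the pairs (edgeR adjusted p = 0.111) or in replicates 3 and 4 alone (0.26, adjusted p = 0.16). With zymosan its libraries held 12.0, 10.0, 10.6 and 9.81 CPM against 6.44, 7.24, 8.33 and 7.56 CPM in WT, without overlap (adjusted p = 0.000265, and 0.0273 with pairs summed). With LPS, Vegfa was at 547, 525, 453 and 465 CPM in labelled KO libraries, all above WT (0.35 ± 0.06, adjusted p = 0.000161, and 0.0402 with pairs summed). Ankrd37 was at 40.3, 43.0, 41.3 and 40.4 CPM, also above all WT libraries (0.26 ± 0.05, adjusted p = 0.000564, and 0.0496 with pairs summed). Egln3 was at 914, 911, 972 and 982 CPM, above WT (0.39 ± 0.08, adjusted p = 0.000755), and did not pass with pairs summed (0.0671).

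Whether the response itself differed between genotypes was tested as the difference between the labelled KO and the WT response. For zymosan 2 members passed, both with a smaller rise in labelled KO cells, and 1.82% of all genes were called (0.973% with a positive and 0.846% with a negative difference). Pfkfb3 rose by 1.10 ± 0.07 there against 1.66 in WT, a difference of −0.55 ± 0.10 (edgeR adjusted p = 0.00592). Hif1a rose by 1.55 ± 0.06 against 1.89, a difference of −0.34 ± 0.08 (adjusted p = 0.022). For LPS 4 members passed, 1 with a positive and 3 with a negative difference, and 10.4% of all genes were called (4.61% positive and 5.84% negative). Slc2a6 rose by 1.36 against 1.89 (difference −0.53 ± 0.10, adjusted p = 0.00188), Hk3 by 0.79 against 1.19 (−0.41 ± 0.08, adjusted p = 0.00259) and Pfkfb3 by 1.65 against 2.06 (−0.41 ± 0.10, adjusted p = 0.0104). Pfkfb4 fell by 0.36 in labelled KO cells and by 0.72 in WT cells, a difference of 0.36 ± 0.07 (adjusted p = 0.00215). The Hif1a difference for LPS, −0.22 ± 0.08, did not pass (adjusted p = 0.0759). All 6 differences kept their sign in each replicate pair alone, for example −0.64 and −0.45 for Pfkfb3 with zymosan, and none passed with the pairs summed, where the adjusted p ranged from 0.208 for Slc2a6 to 0.771 for Hif1a.

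Genes of neighbouring pathways, from lists chosen with earlier results of these data known, give the setting in WT cells. Of all genes, 34.3% were higher and 35.9% lower with zymosan, and 35.9% were higher and 39.7% lower with LPS. Of 19 tested further glycolysis enzymes and carriers, 3 were higher and 10 lower with zymosan, and 6 were higher and 10 lower with LPS. Gpd2, the mitochondrial glycerol phosphate dehydrogenase, rose by 1.54 and 1.61, while Pfkfb2 fell by 1.23 and by 1.68 and the monocarboxylate carrier Slc16a7 by 1.41 and by 1.83. Of 33 genes of pyruvate oxidation and the citrate cycle, 22 were lower and 7 higher with zymosan, and 24 were lower and 7 higher with LPS. Idh3a, a subunit of the citrate cycle isocitrate dehydrogenase, fell by 1.17 and by 1.62, and Pdk2, another pyruvate dehydrogenase kinase, fell by 1.41 with zymosan. Of 9 pentose phosphate genes, 2 were higher and 6 lower with zymosan and 2 were higher and 7 lower with LPS. These comparisons share the untreated libraries, as above.

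Of 35 other known HIF target genes, 20 were higher and 8 lower with zymosan, and 15 were higher and 16 lower with LPS. Loxl2, a collagen cross-linking oxidase, rose by 3.82 and 3.39, and Angptl4, an inhibitor of lipoprotein lipase, fell by 2.12 and by 3.12. Zymosan against LPS, 20 were higher and 4 lower (24.5% and 21.9% of all genes), with the iron importer Tfrc (1.11) and Rora (1.06) higher and Tmem45a (−1.20) lower. Of 14 HIF pathway factors, 9 were higher and 3 lower with zymosan (34.3% and 35.9% of all genes). Among the lower ones, Epas1, which encodes HIF-2α, fell by 1.33 and Arnt2 by 1.58. The same list had 8 higher and 3 lower with LPS (35.9% and 39.7% of all genes). Between genotypes with LPS, 15 of the 35 HIF targets were higher and 3 lower in labelled KO cells (15.6% and 18.2% of all genes), among them Stc2 (1.03), Zfp395 (0.99) and Ddit4 (0.51) on the higher side. The glucose carrier Slc2a3 was higher there by 1.16 and Hif3a by 1.63. Without a stimulus 7 HIF targets were higher and 1 lower (4.31% and 5.64% of all genes), and with zymosan 4 were higher and 6 lower (10.6% and 11.4%).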

How the data were processed

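The authors deposited 1 table of whole-number counts per Ensembl gene for 24 libraries. The submitters' processing notes name Bowtie2, RSEM 1.2.31, DESeq2 and mm10, with no role or order, and whether counting used strand is not given in the sources used here. Titles speak of treated mice and the extraction protocol of stimulated bone marrow-derived cells; the protocol's wording is followed.

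Of 38887 genes, 37570 (96.6%) were given a symbol. Counts were fitted with edgeR 4.0.16 (R 4.3.3; filterByExpr, TMM, quasi-likelihood test, 1 mean for each of 6 groups, 14188 genes tested), and p-values were Benjamini-Hochberg adjusted over all genes tested with a threshold of 0.05. The standard error of a log2 difference was derived from the F statistic. CPM used TMM-scaled library sizes, with scaling factors from 1.14 to 1.19 in untreated libraries and from 0.880 to 0.983 in stimulated ones. Small differences from untreated cells therefore depend on this scaling. Exon lengths came from GENCODE M21 (GRCm38) and promoters from RefSeq. The script was tested on simulated counts. All 31 members are named, and from other lists up to 3 called genes with the largest log2 difference. The members and lists were chosen with earlier results of these data known. DESeq2 1.42.0 and the other alternatives are described in the closing section. Replicate numbers were not a term of the fit. Same-numbered untreated and zymosan libraries of 1 genotype deviated together (correlations of 0.151 to 0.247 in WT and 0.125 to 0.205 in labelled KO cells). Other group pairs had at least 1 correlation under 0.1. Correlations between unlike numbers were not computed, so these values cannot show that the numbers pair libraries. One named gene of the other lists is not reported here.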

Additional observations from a re-analysis of the deposited data

Results flagged for a closer look

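In 10 groups of 4 libraries 1 library stood apart from the other 3 by more than the critical gap for 4 values, a rule that chance meets in about 1 of 20 groups, and 186 groups (31 genes in 6 groups) were examined. Among WT libraries, Hk1 was at 396 CPM in replicate 4 with LPS against 364 to 369 in the others, Gpi1 at 1940 CPM in replicate 3 with zymosan against 2073 to 2097, and Eno1 at 3860 CPM in the same library against 4063 to 4098. In untreated WT cells Pfkfb4 was at 45.4 CPM in replicate 1 against 43.9 to 44.1, Gapdh at 3523 CPM in replicate 2 against 3290 to 3302, and Slc16a1 at 33.7 CPM in replicate 3 against 30.7 to 30.96. Adm was at 4.53 CPM in WT replicate 3 with LPS against 4.98 to 5.06. In untreated labelled KO cells Hk2 was at 336 CPM in replicate 4 against 304 to 307, Slc16a1 at 31.8 CPM in the same library against 27.4 to 28.0, and Pfkp at 607 CPM in replicate 1 against 582 to 585.

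The response to a stimulus passed as different between genotypes in 6 tests of the difference. None of the 6 passed with replicate pairs summed. Of all genes, 1.82% were called for zymosan and 10.4% for LPS. On the log2 scale, labelled KO minus WT, the difference was −0.55 for Pfkfb3 and −0.34 for Hif1a with zymosan. With LPS it was −0.53 for Slc2a6, −0.41 for Hk3, −0.41 for Pfkfb3 and 0.36 for Pfkfb4.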

How the results depend on the processing

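Of 175 calls of a member in a comparison, 129 kept their direction and their side of the threshold under every setting run. DESeq2, a term for the replicate pair, the replicate block and both ways of adding near-identical gene copies ended none; DESeq2 size factors ended 2, no filter on low counts 8, fitting only the groups compared 7, a replicate block nested in genotype 7, replicates 1 and 2 alone 4, and the pair 3 and 4 alone 17, with 1 more reversed and no longer called. Summing replicate pairs ended 45, with fewer samples by construction. Counts of members called between genotypes moved most. In untreated cells (5 called) there were 3 with no filter, 0 with pairs summed, 17 in the pair 1 and 2 and 3 in the pair 3 and 4. With zymosan (6 called) there were 3 with no filter, 3 with only the groups compared, 10 with the replicate block, 11 with the nested block, 12 with the pair term, 2 with pairs summed and 21 with replicates 1 and 2 alone. With LPS (16 called) 6 were left with pairs summed. The dependence of the zymosan response on genotype (2 called) gave 1, 0 and 4 with only the groups compared, pairs summed and replicates 1 and 2 alone. That of the LPS response (4 called) gave 8 with the block, the nested block and the pair term, 0 with pairs summed, 10 in the pair 1 and 2 and 9 in the pair 3 and 4. Labelled KO zymosan against LPS (15 called) gave 23 with replicates 1 and 2 alone. The counts over all genes moved too. In untreated cells they were 1411 as reported, 1254 with no filter, 418 with pairs summed, 3251 in the pair 1 and 2 and 1336 in the pair 3 and 4. With zymosan they were 3134 as reported, 2678 with no filter, 2319 with only the groups compared, 3788 with the block, 2850 nested, 3883 with the pair term, 964 with pairs summed and 4727 in the pair 1 and 2. With LPS they were 4805 and 1987 with pairs summed. For the dependence of the LPS response they were 1482 as reported, 2396, 2555 and 2487 with the block, nested block and pair term, 5 with pairs summed, 2975 and 1644 in the pairs; for that of the zymosan response 258, then 154 with only the groups compared, 0 with pairs summed and 1206 in the pair 1 and 2. For labelled KO zymosan against LPS they were 6059 and 6320 in the pair 1 and 2. Apart from the pairs, the cause was not tested.

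Same-numbered libraries correlated by −0.12 to 0.13 across genotypes and by −0.04 to 0.25 within one. Within a genotype, only untreated and zymosan libraries had every such correlation over 0.1, which does not show pairing, as said above. For zymosan against untreated, the block within genotype gave 28 members in WT and 26 in labelled KO cells (26 and 25 without it) and ended no call. Leaving out 1 library gave 2 to 5, 3 to 8 and 13 to 15 members between genotypes (untreated, zymosan, LPS), 1 to 2 and 4 to 4 for the dependence of the zymosan and LPS responses, 25 to 26, 25 to 26 and 21 to 25 in WT cells (zymosan, LPS, zymosan against LPS) and 25 to 26, 26 to 26 and 13 to 18 in labelled KO cells. Egln3 between zymosan and LPS in labelled KO cells turned to −0.00143 with replicates 3 and 4 alone. With the longest transcript as length, shares in WT cells with LPS were 54.0% for Hk3, 59.1% for Pfkl, 98.4% for Aldoa, 99.9% for Eno1, 96.9% for Slc16a3, 56.2% for Slc2a1 and 81.4% for Egln3.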

Other observations

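Glycogen genes were not described above. Of 14 tested, 5 were higher and 5 lower in WT cells with zymosan than without, and 4 were higher and 8 lower with LPS, with the same untreated libraries in both. Of all genes, 34.3% were higher and 35.9% lower with zymosan, and 35.9% and 39.7% with LPS. Pgm2l1, a glucose 1,6-bisphosphate synthase, fell by 1.26 with zymosan and by 1.43 with LPS on the log2 scale. Between genotypes, 8 of the 14 were higher and 1 lower in labelled KO cells with LPS (15.6% and 18.2% of all genes), among them the branching enzyme Gbe1 (0.50) and the liver-type phosphorylase Pygl (0.37). In untreated cells 4 were higher and none lower (4.31% and 5.64% of all genes), and with zymosan 2 were higher and 1 lower (10.6% and 11.4%).

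The 36 near-identical copies of Gapdh that had counts took 44.3%, 45.6% and 46.7% of the sum of Gapdh and its copies in WT cells (untreated, zymosan, LPS) and 49.2%, 49.7% and 49.2% in labelled KO cells.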
